A study of Mus musculus with 10 samples.

Results

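Tuft cell genes were examined in RNA-seq data of mouse intestinal organoids. The 8 genes *Dclk1*, *Trpm5*, *Pou2f3*, *Il25*, *Gfi1b*, *Avil*, *Alox5* and *Ptgs1* were chosen by name, out of 47069 genes with counts, and all 8 were found once each. Organoids came from C57BL/6 mice carrying *Lgr5-EGFP-CreERT2* with floxed *Ppp2r1a*, the scaffold subunit of the phosphatase PP2A, and were kept for 50 days in Matrigel with Noggin, EGF and R-spondin-1 (NER). There were 5 groups of 2 libraries: control (NER with saline), DMBA (a carcinogen, labelled Long), tamoxifen (TAM), called Dosage-sensitive in the labels, as a short and as a Long set, and DMBA together with TAM. The floxed alleles and the *Lgr5*-driven Cre are shared by every group, control included, and the Cre acts after tamoxifen in cells that express *Lgr5*, so the other cells of an organoid lose *Ppp2r1a* only by descent from these. The doses of DMBA and TAM in these cultures, the age of the mice from which they were taken and what short and Long stand for are not given in the sources used here, although a tamoxifen dose and an age are given for mice injected in vivo. Nothing states whether both libraries of a group came from separate mice, so p-values measure only the spread between these libraries.

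Tuft cells are rare chemosensory cells of the intestinal epithelium. They sense luminal metabolites through a taste-like cascade that ends in the cation channel TRPM5, they depend on the transcription factor POU2F3, and they release the cytokine IL-25 and lipid mediators in the response to parasites. DCLK1, a microtubule-associated kinase, is the usual marker of tuft cells, but it is also made in neurons and other cells, and the eicosanoid enzymes of tuft cells are shared with blood cells.

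The genes lie on separate chromosomes for the most part. On GRCm38, *Dclk1* (ENSMUSG00000027797) runs on the plus strand of chromosome 3 from 55242364 to 55539068, *Trpm5* (ENSMUSG00000009246) on the minus strand of chromosome 7 from 143069153 to 143094642, and *Pou2f3* (ENSMUSG00000032015) on the minus strand of chromosome 9 from 43123939 to 43210369. *Avil* (ENSMUSG00000025432) lies on chromosome 10, *Alox5* (ENSMUSG00000025701) on chromosome 6, *Il25* (ENSMUSG00000040770) on chromosome 14, and *Gfi1b* (ENSMUSG00000026815) and *Ptgs1* (ENSMUSG00000047250) on chromosome 2. RefSeq gives *Dclk1* 2 starts. The second, at 55461728, lies 219364 bases after the first, inside introns of 5 longer transcripts, and 7 transcripts of GENCODE start within 300 bases of it against 3 at the first. Counts are summed over the exons of a gene, so transcripts of the 2 starts cannot be told apart here. The 250 bases before each *Dclk1* start and before the *Trpm5* start are shown because these genes moved apart in the DMBA+TAM libraries (RefSeq, GRCm38.p6, each 5′ to 3′ on the strand of the gene, chr3:55242114-55242363, chr3:55461478-55461727 and chr7:143094643-143094892).

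Dclk1, first start: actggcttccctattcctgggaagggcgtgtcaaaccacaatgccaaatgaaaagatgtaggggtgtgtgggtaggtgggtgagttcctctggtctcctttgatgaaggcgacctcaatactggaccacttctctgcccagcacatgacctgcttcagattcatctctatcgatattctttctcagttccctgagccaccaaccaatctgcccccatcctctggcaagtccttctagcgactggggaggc
Dclk1, second start: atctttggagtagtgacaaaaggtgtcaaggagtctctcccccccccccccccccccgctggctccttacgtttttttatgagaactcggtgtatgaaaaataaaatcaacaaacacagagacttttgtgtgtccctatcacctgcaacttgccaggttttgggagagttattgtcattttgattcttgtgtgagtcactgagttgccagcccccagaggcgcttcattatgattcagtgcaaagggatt
Trpm5: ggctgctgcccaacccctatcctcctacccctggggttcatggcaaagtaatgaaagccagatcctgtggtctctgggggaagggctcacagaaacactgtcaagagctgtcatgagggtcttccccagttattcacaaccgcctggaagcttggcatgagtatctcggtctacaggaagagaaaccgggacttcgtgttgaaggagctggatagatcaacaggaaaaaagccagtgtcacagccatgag

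POU2F3 belongs to a family of factors that bind the octamer ATGCAAAT, and both strands of these windows were searched for it. RefSeq windows matched 6 of the 8 genes (7 windows). The octamer was in 0 of these 7 windows and in 1.6% of 32817 windows of the same length. The overlapping 7-letter word ATGCAAA was in the *Avil* window alone (4.13% of all windows), and TGCAAAT was in 0 of 7 (3.57% of all windows). GC content was between 42.0% and 52.8%, with a median of 52.4% over all windows.

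Facts of the series that touch these genes came first. The libraries held from 1592366 to 10923673 counts, the DMBA+TAM libraries being the smallest with 1592366 and 1915270, so 3 counts, the floor used here, stood for 1.32 to 1.58 normalized CPM (counts relative to the TMM-scaled library total) there and for 0.259 to 0.379 elsewhere. *Ppp2r1a* itself had 126 ± 4.56 normalized CPM in control, 139 ± 11.9 in TAM short, 163 ± 8.09 in TAM long, 131 ± 2.63 in DMBA+TAM and, without tamoxifen, 160 ± 10.3 in DMBA (mean ± SD, n = 2), which is no check of a deletion of some of its exons. The DMBA+TAM libraries had less of all 8 epithelial markers than the control libraries, and the summed level of these was 18.1 to 25.3 normalized CPM against 15100 to 15500. Thus the defining genes of the labelled tissue were nearly absent from the DMBA+TAM libraries. Library names (NS, NL, DSS_S, DSS_L and, for DMBA+TAM, Lgr5) spell out no treatment. In the study's paper DSS is short for dextran sulfate sodium, named there for colitis in mice, whereas the labels of DSS_S and DSS_L name TAM. The library names hold an S in control and TAM short and an L in DMBA and TAM long, and segment markers split the same way: small intestine markers summed to between 18200 and 20600 normalized CPM in the former and between 236 and 370 in the latter, and colon markers to between 10.2 and 21.8 against between 2080 and 11600. In a comparison across this split, treatment and segment cannot be told apart.

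*Dclk1* was high in 3 groups and low in 2. Its normalized CPM were 4.97 and 4.22 in control, 3.95 and 4.54 in TAM short, 28.8 and 27.7 in DMBA, 26.6 and 24.5 in TAM long, and 29.6 and 44.5 in DMBA+TAM. Values of control and TAM short were interleaved, every library of the other 3 groups lay above them, and both DMBA+TAM libraries lay above both DMBA libraries, 1 of them by little. Against control, *Dclk1* rose 8.07-fold in DMBA+TAM (log2 fold change 3.01, SE 0.22, adjusted p = 1.61e-06 by edgeR, quasi-likelihood F test, Benjamini-Hochberg adjustment over 16179 genes, as for every adjusted p here unless another tool is named), 6.13-fold in DMBA (adjusted p = 1.13e-05) and 5.53-fold in TAM long (adjusted p = 1.61e-05). TAM short did not pass the test against control (log2 fold change -0.12, SE 0.24, adjusted p = 0.802). DMBA+TAM against DMBA did not pass either (0.40, SE 0.2, adjusted p = 0.114), while DMBA+TAM against TAM long passed narrowly (0.54, SE 0.2, adjusted p = 0.0385). The last call was lost without DMBA+TAM replicate 2 (0.22, adjusted p = 0.394) and without either TAM long library (adjusted p = 0.0823 and 0.135), as well as with no filter (adjusted p = 0.0638), with only the groups compared (adjusted p = 0.0593) and with limma on log2(FPKM + 0.1) (adjusted p = 0.051). Without DMBA+TAM replicate 1 the rise over DMBA became a call (0.66, adjusted p = 0.0168), as it did when libraries were scaled by size alone (0.58, adjusted p = 0.042). In bulk RNA, more cells of a type and more RNA per cell cannot be told apart, for this gene and all that follow.

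*Trpm5*, which encodes the channel that depolarises tuft cells, went another way. It had 46 and 61 counts in control, 18 and 17 in TAM short, 182 and 118 in DMBA, 98 and 102 in TAM long, and 0 and 0 in DMBA+TAM. The groups did not overlap: DMBA was the highest, TAM long came next, then control, TAM short and DMBA+TAM. At the level of the control libraries, 11.9 and 14.2 counts would have been read at the depth of the DMBA+TAM libraries, and 27.9 and 33.5 at the level of DMBA. *Tssc4* overlaps *Trpm5* on the opposite strand, with 36 and 51 counts in DMBA+TAM and 164 to 217 elsewhere, and the strand setting of the counting is not stated. *Trpm5* fell in DMBA+TAM against all 4 other groups, to a level at least 4.32-fold lower than control (adjusted p = 0.000102), at least 10.2-fold lower than DMBA (adjusted p = 1.95e-05), at least 6.36-fold lower than TAM long (adjusted p = 5.36e-05) and at least 1.44-fold lower than TAM short (adjusted p = 0.00195), bounds that set each DMBA+TAM library at 3 counts. These 4 calls were made under every alternative that tested the gene, and with only DMBA+TAM and TAM short in the fit it did not pass the filter. *Trpm5* rose 2.36-fold in DMBA against control (log2 fold change 1.24, SE 0.25, adjusted p = 0.00365) and fell in TAM short (-1.58, SE 0.3, adjusted p = 0.00915), whereas TAM long against control did not pass (0.56, SE 0.25, adjusted p = 0.102) except with library size only (0.88) and limma on log2(FPKM + 1) (0.66). The fall in TAM short was lost without control replicate 2 (-1.31, adjusted p = 0.0729) and without either TAM short library (adjusted p = 0.0655 and 0.0707).

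*Pou2f3*, the factor on which the lineage depends, was read at low counts. There were 2 and 4 counts in control, 2 and 1 in TAM short, 15 and 6 in DMBA, 18 and 17 in TAM long, and 0 and 0 in DMBA+TAM. TAM long and DMBA lay above control and TAM short, which met at 2 counts. It rose 4.44-fold in TAM long against control (log2 fold change 2.15, SE 0.62, adjusted p = 0.0208), a call lost without control replicate 1 (1.71, adjusted p = 0.127) and without either TAM long library (adjusted p = 0.063 and 0.0794), and with DESeq2 (adjusted p = 0.114). DMBA against control did not pass (1.51, SE 0.66, adjusted p = 0.0895). DMBA+TAM was at least 1.11-fold lower than TAM long (adjusted p = 0.0129, and 1 of its alternatives missed the threshold, that without DMBA+TAM replicate 2) and passed against DMBA (adjusted p = 0.0306), where the bound gives no fold. The call against DMBA was lost without DMBA replicate 1 (adjusted p = 0.0852) and without either DMBA+TAM library (adjusted p = 0.0932 and 0.117), and with DESeq2 (adjusted p = 0.0909). Against control the fall was not detectable at this depth, since the control level would have given 0.671 and 0.803 counts in the DMBA+TAM libraries.

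*Gfi1b*, a transcriptional repressor of tuft and blood lineages, and *Il25* had too few counts for the test. *Gfi1b* had 0 and 0 counts in control, 1 and 0 in TAM short, 5 and 4 in DMBA, 2 and 3 in TAM long, and 0 and 0 in DMBA+TAM. *Il25* had 1 and 1 counts in DMBA, 0 and 1 in TAM long, and 0 in each of the other 6 libraries. Counts of both genes were nearly confined to the DMBA and TAM long libraries, the exception being 1 count of *Gfi1b* in TAM short. In DMBA+TAM a level as in DMBA would have given 0.848 and 1.02 counts of *Gfi1b*, under the floor.

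*Avil* encodes advillin, an actin-bundling protein of the tuft cell's microvilli. Its normalized CPM were 1.58 and 1.69 in control, 2.37 and 1.77 in TAM short, 9.82 and 6.07 in DMBA, 5.09 and 4.42 in TAM long, and 4.75 and 2.64 in DMBA+TAM. DMBA libraries were the highest, and the DMBA+TAM libraries, with 9 and 6 counts, overlapped TAM long and lay above control. *Avil* rose in DMBA (log2 fold change 2.28, SE 0.37, adjusted p = 0.000756) and in TAM long against control (1.53, SE 0.37, adjusted p = 0.00784; 1.49 and no longer a call without control replicate 1). DMBA+TAM against control did not pass (1.14, SE 0.48, adjusted p = 0.0588), and it passed with the replicate block (adjusted p = 0.0481), with scaling by library size only, with limma and without DMBA+TAM replicate 2 (1.52, adjusted p = 0.0478). *Avil* was lower in DMBA+TAM than in DMBA (-1.13, SE 0.41, adjusted p = 0.0404), which did not hold without DMBA replicate 1 (-0.73, adjusted p = 0.204) or DMBA+TAM replicate 2 (-0.74, adjusted p = 0.258), nor with DESeq2 (adjusted p = 0.11), library size only (adjusted p = 0.0961), only the groups compared (adjusted p = 0.108) or limma (adjusted p = 0.0558 and 0.0784). *Tsfm* overlaps *Avil* on the opposite strand with 20 and 33 counts in DMBA+TAM and 156 to 244 elsewhere, with the same limit.

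Next came the eicosanoid enzymes among the 8 genes, *Alox5* and *Ptgs1*. *Alox5*, the 5-lipoxygenase that starts leukotriene synthesis, had 1.13 and 2.77 normalized CPM in control, 1.58 and 1.51 in TAM short, 6.79 and 8.54 in DMBA, 5.26 and 7.37 in TAM long, and 23.2 and 22.0 in DMBA+TAM. The DMBA+TAM libraries stood above all others, DMBA and TAM long overlapped, and control spanned TAM short. *Alox5* rose 11.6-fold in DMBA+TAM against control (log2 fold change 3.54, SE 0.39, adjusted p = 2.45e-05), 2.96-fold against DMBA (adjusted p = 0.0031) and 3.58-fold against TAM long (adjusted p = 0.00119). It also rose in DMBA (1.97, SE 0.37, adjusted p = 0.00194) and in TAM long against control (1.69, SE 0.38, adjusted p = 0.00482). These 5 calls were made under every alternative run.

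*Ptgs1*, the cyclooxygenase COX-1 of prostaglandin synthesis, had the highest level per length of the 8 genes in every group. Its normalized CPM were 17.9 and 21.1 in control, 18.6 and 16.3 in TAM short, 63.0 and 34.9 in DMBA, 43.8 and 53.0 in TAM long, and 34.3 and 41.4 in DMBA+TAM. All libraries of DMBA, TAM long and DMBA+TAM lay above control and TAM short, DMBA spanned most of the others, and DMBA+TAM lay below TAM long. *Ptgs1* rose in DMBA+TAM (log2 fold change 0.96, SE 0.28, adjusted p = 0.0117), DMBA (1.33, SE 0.25, adjusted p = 0.002) and TAM long (1.31, SE 0.25, adjusted p = 0.00227) against control. The first of these was lost without control replicate 1 (0.85, adjusted p = 0.0685) or DMBA+TAM replicate 2 (0.80, adjusted p = 0.0945). The rise over TAM short (1.12, adjusted p = 0.00569) was likewise lost without DMBA+TAM replicate 2 (0.96, adjusted p = 0.0548). DMBA+TAM against DMBA did not pass (-0.37, SE 0.27, adjusted p = 0.265) and rested on DMBA replicate 1, without which the difference was 0.13 and without whose partner it was -0.73 (adjusted p = 0.0104).

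**Figure D1:**
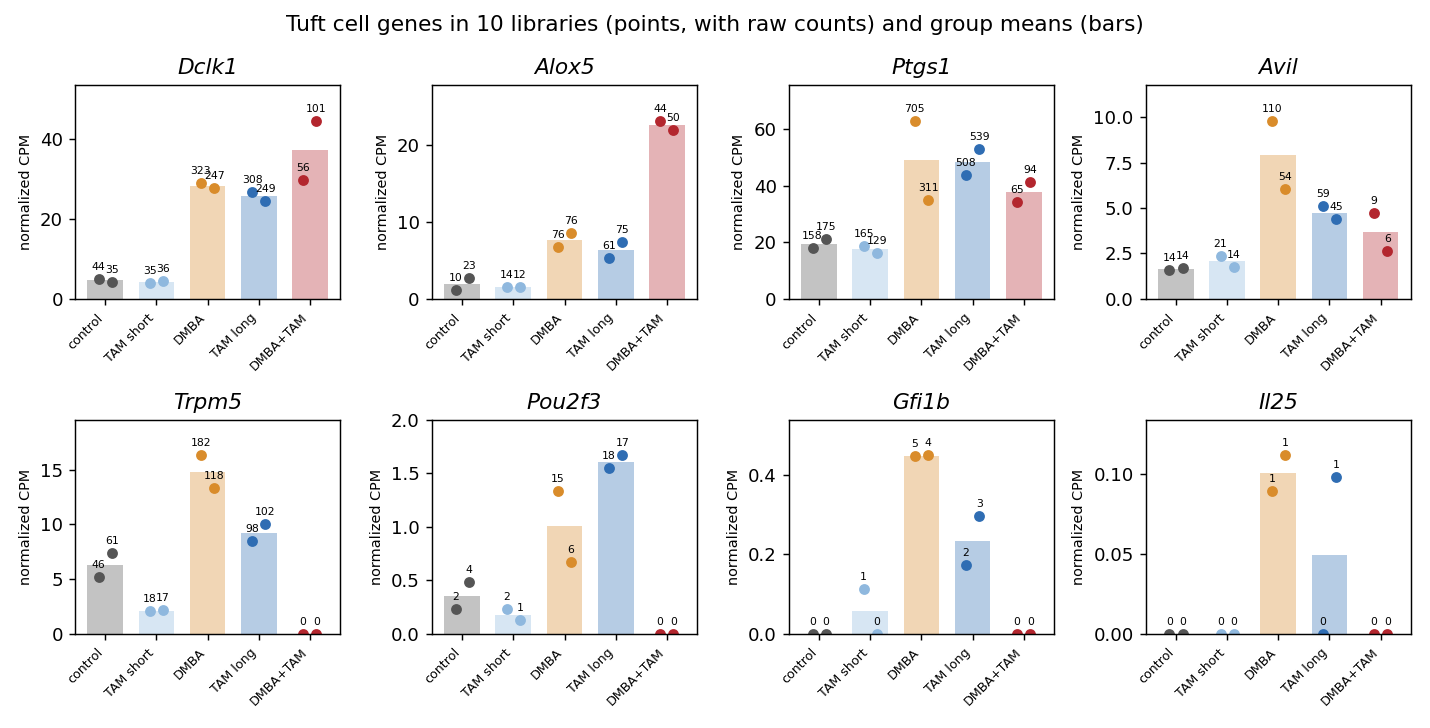
Normalized CPM of the 8 tuft cell genes (y axis, linear, a separate scale for each gene) by group (x axis), with a point for each library, its raw count above the point and a bar for the mean of the 2 libraries. *Dclk1*, *Alox5*, *Ptgs1* and *Avil* have counts in both DMBA+TAM libraries, while *Trpm5*, *Pou2f3*, *Gfi1b* and *Il25* stand at 0 counts there.

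Of the 8 genes, 6 passed the filter on low counts, and *Gfi1b* and *Il25* did not. In DMBA+TAM against control, 3 of the 6 were higher (*Dclk1*, *Alox5*, *Ptgs1*) and 1 was lower (*Trpm5*), where 29.0% of 16179 genes were called higher and 35.3% lower. The median log2 fold change of the 6 was 1.05 (1.6 with the genes at 0 set to the floor), with -0.17 over all genes. In DMBA+TAM against DMBA, 1 was higher (*Alox5*) and 3 lower (*Trpm5*, *Pou2f3*, *Avil*), where 25.2% and 29.9% of all genes were called, and against TAM long 2 were higher (*Dclk1*, *Alox5*) and 2 lower (*Trpm5*, *Pou2f3*), with 25.3% and 29.9% of all genes. Against TAM short, 3 were higher and 1 lower, the genes called against control, with 29.3% and 33.8% of all genes. All 4 of these comparisons share the DMBA+TAM libraries, and a called share of 25.2% to 35.3% in 1 direction is the background of these comparisons.

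In DMBA against control, 5 of the 6 were higher and 0 lower, *Pou2f3* being the gene not called, where 24.5% of all genes were higher and 23.3% lower. TAM long against control also gave 5 higher and 0 lower, here with *Trpm5* not called (23.2% and 22.8% of all genes). The median log2 fold changes were 1.74 and 1.61, with 0.07 and 0.05 over all genes. These comparisons share the control libraries and cross the split of segment markers. Within that split, TAM short against control gave 0 higher and 1 lower (*Trpm5*), where 6.52% and 7.80% of all genes were called. TAM long against TAM short, which crosses it, gave 6 higher of 6 and 0 lower, where 22.0% and 20.3% of all genes were called. The fitted value was highest for *Pou2f3* (3.07, SE 0.7, adjusted p = 0.00803). With 2 and 1 counts in TAM short, under the floor of 3, *Pou2f3* has no settled place in this order. Then came *Dclk1* (2.59, SE 0.21, adjusted p = 2.16e-05), *Trpm5* (2.14, SE 0.29, adjusted p = 0.000524), *Alox5* (2.01, SE 0.39, adjusted p = 0.00265), *Ptgs1* (1.47, SE 0.26, adjusted p = 0.00154) and *Avil* (1.19, SE 0.36, adjusted p = 0.0248). *Avil* and *Pou2f3* lost this call without some single library, *Pou2f3* without TAM short replicate 2 (2.75) and *Avil* without any 1 of the 4 (1.0 to 1.42). Scaling by library size only moved the median of all genes by 0.48 in DMBA+TAM against control and by 0.31 in DMBA against control, and no direction of the 6 genes turned with it.

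**Figure D2:**
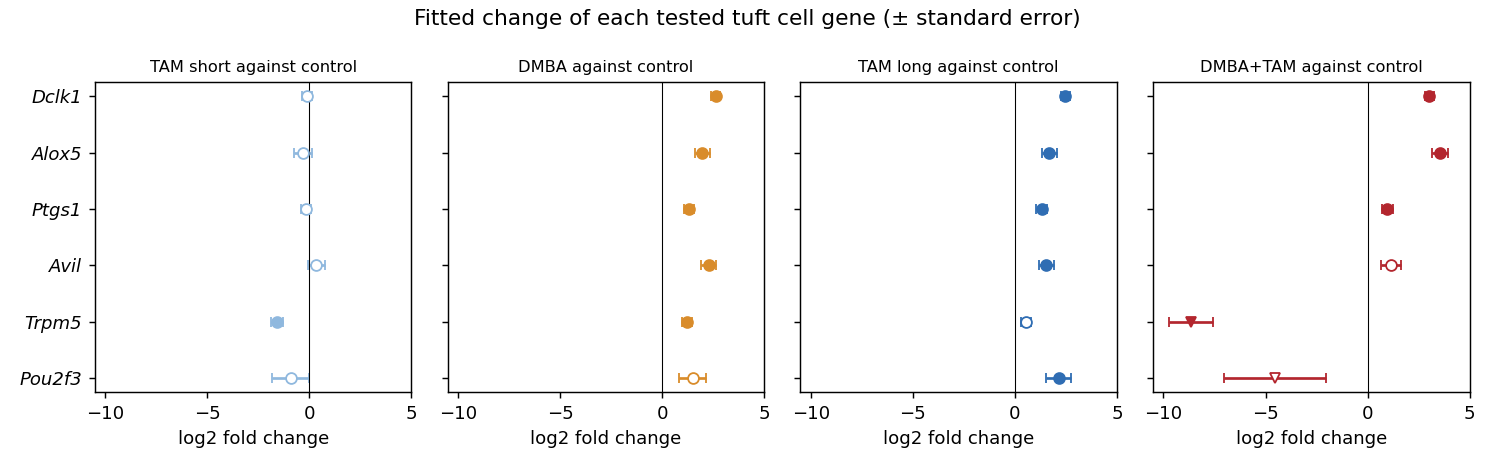
Fitted log2 fold change of the 6 tested tuft cell genes against control (x axis, with the standard error), filled where the adjusted p was under 0.05 and open where it was not. Triangles mark genes without a count in DMBA+TAM, whose fitted value depends on the model and is no size. DMBA and TAM long show all 6 genes to the right of 0, and DMBA+TAM shows *Trpm5* and *Pou2f3* to the left.

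*Dclk1* was then set against the other 7 genes. It took 11.2% to 17.2% of the counts of the 8 genes in control and TAM short, 22.8% to 30.2% in DMBA and TAM long, and 32.2% and 40.2% in DMBA+TAM. The exact 95% binomial intervals were 25.3% to 39.7% and 34.1% to 46.6% in the 2 DMBA+TAM libraries and cover counting error only. As a share of FPKM, which is per length, it took 5.71% to 8.65% in control and TAM short, 12.2% to 17.2% in DMBA and TAM long, and 17.8% and 23.4% in DMBA+TAM. The order of levels by FPKM is given next, and it depends on the gene length used. For all of the 8 genes but *Il25*, FPKM rest on a shorter length than the listed one (3518 bases for *Dclk1*, listed with 7962). Each order is therefore set beside that with the listed lengths. *Ptgs1* came first in every group with both. In control *Ptgs1* (10.9 ± 1.01 FPKM, mean ± SD, n = 2) came first, followed by *Trpm5* (2.18 ± 0.477) and *Dclk1* (1.11 ± 0.155), with *Alox5* (0.927 ± 0.532) spanning it and *Avil* (0.821 ± 0.017) below it, whereas with listed lengths *Avil* overlapped *Dclk1*. In TAM short, *Avil* (1.11 ± 0.231) and *Dclk1* (1.09 ± 0.105) did not differ beyond their spread, and neither did *Alox5* (0.788 ± 0.0256) and *Trpm5* (0.775 ± 0.028), while with listed lengths neither pair overlapped.

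In DMBA, *Ptgs1* (34.6 ± 17.1 FPKM) was followed by *Dclk1* (8.41 ± 1.06) and *Trpm5* (6.41 ± 1.54), whose values did not overlap by FPKM but did with listed lengths (4.05 and 3.39 RPKM for *Dclk1*, 4.41 and 3.12 for *Trpm5*). In TAM long *Dclk1* (7.64 ± 0.527) lay above *Trpm5* (4.01 ± 0.439) with both lengths. In DMBA+TAM the order was *Ptgs1* (29.8 ± 3.87), *Alox5* (15.2 ± 0.611), *Dclk1* (12.5 ± 3.53) and *Avil* (2.61 ± 1.06), the *Alox5* and *Dclk1* ranges overlapping by FPKM but not with listed lengths (7.73 and 7.30 RPKM against 4.42 and 6.62). The ratio of *Dclk1* to *Trpm5* FPKM was 0.659 and 0.395 in control, 1.34 and 1.46 in TAM short, 1.22 and 1.44 in DMBA, and 2.16 and 1.68 in TAM long, and has no value in DMBA+TAM. With listed lengths it was 0.495 and 0.297, 1.01 and 1.10, 0.919 and 1.08, and 1.63 and 1.26 in the same order, so its side of 1 turned in 1 DMBA library, and control had the lowest ratios with both lengths. Together *Trpm5*, *Pou2f3*, *Gfi1b* and *Il25* had 18 to 203 counts in each of the 8 other libraries and 0 in both DMBA+TAM libraries. Thus 4 of the 8 genes were at 0 counts in both, as were 32.0% of 26392 genes with a count in any library, and 2 of the 6 tested genes, as were 6.45% of all genes tested. With the listed lengths the share of *Dclk1* was 4.74% to 7.29% in control and TAM short, 10.2% to 14.6% in DMBA and TAM long, and 15.6% and 20.6% in DMBA+TAM.

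**Figure D3:**
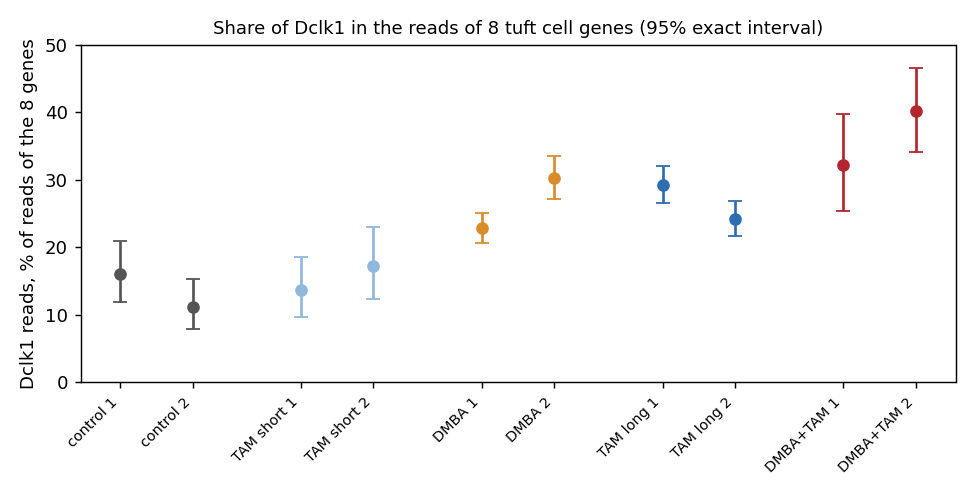
Counts of *Dclk1* as a percentage of the counts of the 8 tuft cell genes (y axis) in each library (x axis), with exact 95% binomial intervals. The control and TAM short libraries lie between 11.2% and 17.2%, and those of DMBA and TAM long between 22.8% and 30.2%. The DMBA+TAM libraries lie at 32.2% and 40.2%, and the interval of replicate 1 starts at 25.3%, below the highest DMBA library.

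A wider list of 42 tuft cell genes was read in the same way, and 36 of them passed the filter. In DMBA+TAM against control, 21 were higher and 5 lower, with a median log2 fold change of 1.36 (2.16 with the 5 genes at 0 set to the floor), against 16 and 4 in DMBA, 15 and 4 in TAM long and 1 and 1 in TAM short. In TAM long against TAM short, 14 were higher and 6 lower. DMBA+TAM had 19 higher and 9 lower against DMBA, 20 and 8 against TAM long, and 21 and 5 against TAM short. The shares of all genes called are those given above.

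The list was then read by role. Of eicosanoid synthesis genes, 4 of 4 rose against control: *Alox5ap*, the partner of 5-lipoxygenase (5.84 on the log2 scale, SE 0.72), *Hpgds*, a prostaglandin D synthase (5.11, SE 0.32), *Pla2g4a*, the phospholipase that frees arachidonic acid (2.20, SE 0.15), and *Ltc4s*, leukotriene C4 synthase (2.09, SE 0.69). Of signalling genes shared with blood cells, 9 of 11 rose and 0 fell, among them *Inpp5d* (3.93, SE 0.26), *Fyb* (3.69, SE 0.18) and *Vav1* (3.58, SE 0.31). Of 3 tested lineage factors, *Runx1*, a factor of blood and other cells, rose (4.82, SE 0.24), *Sox9*, a factor of stem and tuft cells, fell (-0.70, SE 0.21) and *Spib* did not pass (-0.54, SE 0.93). Of 4 tested surface proteins, *Cd300lf*, a receptor of myeloid and tuft cells, rose (3.49, SE 0.39), *Cd24a* fell (-3.73, SE 0.3) and the others did not pass. Of 5 other tuft markers tested, *Hebp1* (4.02, SE 0.18) and *Kctd12* (2.11, SE 0.16) rose, and *Espn*, an actin-bundling protein of microvilli, fell to 3 counts in both libraries together (ratio of count rates 0.00362, 95% interval from 0.000747 to 0.0106, counting error only). Of 4 cytokine and receptor genes, *Il4ra* (2.06, SE 0.12) and *Tslp* (2.83, SE 0.8) rose, and *Il13ra1*, a receptor chain for IL-13, fell (-1.03, SE 0.22).

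Of taste transduction and nutrient receptor genes, 2 rose and 1 fell of 5 tested. *Plcb2*, the phospholipase of the taste cascade, rose (2.88, SE 0.31), whereas *Gnat3*, its G protein subunit gustducin, and *Ffar3*, a receptor of short-chain fatty acids, had 0 counts in both DMBA+TAM libraries. *Gnat3* had 13 and 17 counts in DMBA, 28 and 37 in TAM long, 4 and 0 in control, and 0 and 0 in TAM short, so in DMBA+TAM it was lower than in TAM long (at least 2.08-fold, adjusted p = 0.0184), and against control no difference could be seen at this depth. *Tas1r3* fell to 1 count (ratio of count rates 0.133, 95% interval from 0.00326 to 0.797, counting error only, adjusted p = 0.0457), and *Sucnr1*, the succinate receptor, passed narrowly (adjusted p = 0.0484) on 2 and 3 counts in control and 7 and 2 in DMBA+TAM, so that only 1 of these libraries was above 3 counts. In all, 9 of the 42 genes had 0 counts in both DMBA+TAM libraries: *Gnat3*, *Gng13*, *Ffar3*, *Hmx2*, *Hmx3*, *Rgs13*, *Ly6g6f*, *Chat* and *Ccdc129*. This is 21.4% of the list, where 32.0% of all genes with a count in any library were at 0, and 5 of the 36 tested genes (13.9%), where 6.45% of all genes tested were. Among them *Rgs13*, a regulator of G protein signalling, had 5 and 19 counts in control and missed the threshold (adjusted p = 0.0549), although the control level would have given 2.7 and 3.24 counts. *Sh2d6* had 0 and 1 counts in DMBA+TAM, 10 and 8 in control, 109 and 71 in DMBA, and 72 and 83 in TAM long.

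In DMBA and TAM long, genes of the wider list rose and fell. In DMBA against control, *Sh2d6* rose (3.06 on the log2 scale, SE 0.37, adjusted p = 0.000144), as did *Siglecf*, a sialic acid-binding receptor (2.84, SE 0.55, adjusted p = 0.00218), *Ffar3* (2.29, SE 0.57, adjusted p = 0.00977), *Rgs13* (2.65, SE 0.57, adjusted p = 0.00496), *Sox9* (2.63, SE 0.16, adjusted p = 1.83e-06), and *Chat*, the acetylcholine synthase (3.40, SE 0.97, adjusted p = 0.0218). In TAM long, *Sh2d6* (2.76, SE 0.38), *Siglecf* (3.24, SE 0.54), *Ffar3* (2.45, SE 0.56) and *Gnat3* (3.61, SE 0.85) rose as well, and *Chat* did not pass (adjusted p = 0.0952). In each of these groups 4 genes fell: *Espn* (-1.44, SE 0.26 in DMBA and -1.24, SE 0.26 in TAM long), *Plcg2* (-1.03, SE 0.29 and -1.79, SE 0.3), *Il13ra1* (-0.76, SE 0.22 and -0.65, SE 0.22) and *Il4ra* (-0.62, SE 0.12 and -0.91, SE 0.12). B cell markers, which share *Rgs13* and *Spib* with tuft cells, summed to 7.12 and 36.4 normalized CPM in control and ranged from 5.09 to 80.4 in DMBA, and *Spib* had 12 and 53 counts in control and 69 and 152 in DMBA. The part of B cells in these values was not tested.

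**Figure D4:**
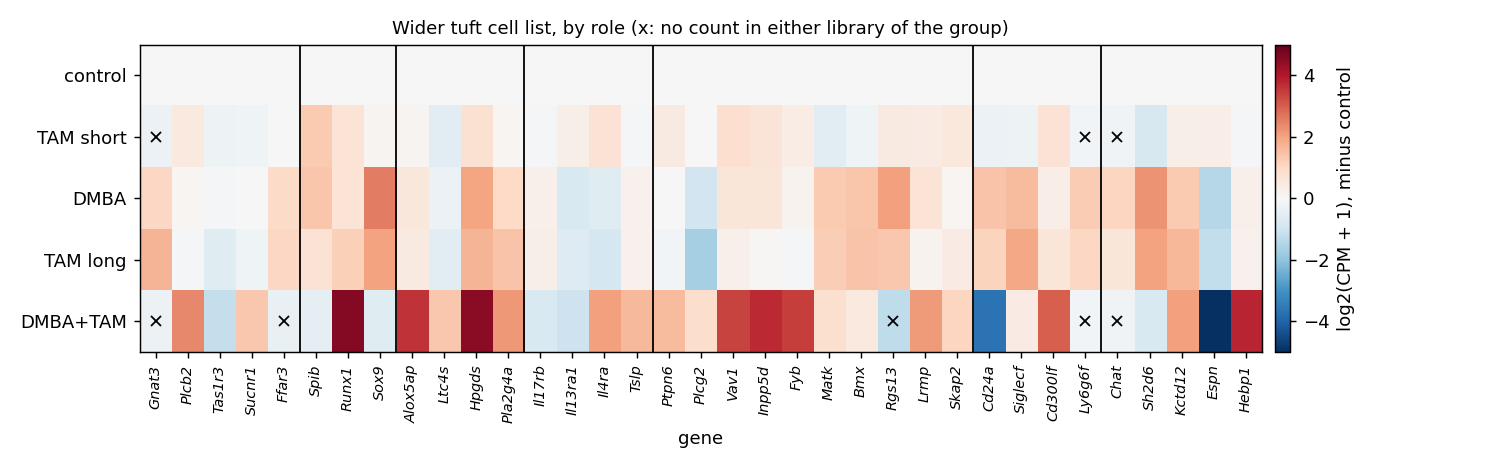
Level of tested genes of the wider tuft cell list, all but 1 of the 36 (x axis, grouped by role between vertical lines) in each group (y axis), as the difference of log2(mean normalized CPM + 1) from control, red for higher and blue for lower, with colours capped at 5 in either direction and crosses where both libraries had no count. The DMBA+TAM row holds red fields for the eicosanoid genes and most blood cell signalling genes, the darkest blue for *Cd24a* and *Espn*, and crosses for *Gnat3*, *Ffar3*, *Rgs13*, *Ly6g6f* and *Chat*.

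Markers of other cells moved with these genes. From control to DMBA+TAM, 7 of 7 fibroblast markers rose (summed level 1120 to 1290 against 31200 to 32000 normalized CPM), as did 6 of 6 macrophage markers (190 to 242 against 5770 to 5940), 4 of 4 neutrophil markers (0.964 to 1.92 against 89.0 to 108), 5 of 6 mast cell markers (14.2 to 16.7 against 85.5 to 185), 4 of 4 tested markers of platelets and megakaryocytes (3.51 to 4.7 against 58.2 to 69.7) and 5 of 5 of endothelium (70.2 to 76.4 against 532 to 536). *Alox5* and *Ptgs1* are expressed in such cells also, and the part of these cells in the levels of *Dclk1*, *Alox5* and *Ptgs1* was not tested. All 4 T cell markers were at 0 counts in both DMBA+TAM libraries. *Dclk1* is also a gene of neurons. Enteric neuron markers summed to between 27.1 and 31.3 normalized CPM in control, 14.4 and 21.0 in TAM short, 68.3 and 83.6 in DMBA, 60.5 and 65.9 in TAM long, and 39.7 and 50.7 in DMBA+TAM, enteric glia markers to between 6.87 and 8.14, 2.78 and 3.28, 20.9 and 33.1, 25.7 and 39.2, and 48.9 and 57.0, and smooth muscle markers to between 1580 and 1870, 1030 and 1990, 5940 and 10400, 7030 and 10700, and 862 and 1160 in the same order. Neuron and glia sums were thus higher in each group where *Dclk1* was high. So were the sums of fibroblast markers (1900 to 2150 in DMBA, 1300 to 1640 in TAM long and 655 to 785 in TAM short). The same held for the sums of endothelium (88.7 to 104, 84.2 to 102 and 56.0 to 63.8) and mast cells (73.3 to 80.1, 51.0 to 59.9 and 16.5 to 20.4). Few single markers of these 2 lists were called higher than control, however. For endothelium 2 of 5 were in DMBA and 1 of 5 in TAM long, and for mast cells 1 of 6 in each. A single marker held most of the mast cell sum in DMBA (mean 70.5) and TAM long (51.1). In DMBA+TAM that marker was at 11.9, with 13.1 in control, so other markers held most of the sum there. The part of all these cells in the level of *Dclk1* was not tested. Epithelial markers summed to between 17100 and 18100 in TAM short, 11500 and 12300 in DMBA, and 11500 and 12700 in TAM long, and the single markers did not move together, with 3 of 8 higher and 3 lower in DMBA against control. Over the 10 libraries, Pearson's r with these 8 markers was 0.82 to 0.94 for *Trpm5* and -0.68 to -0.39 for *Dclk1*, and the part of the epithelial share in either level was not tested.

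**Figure D5:**
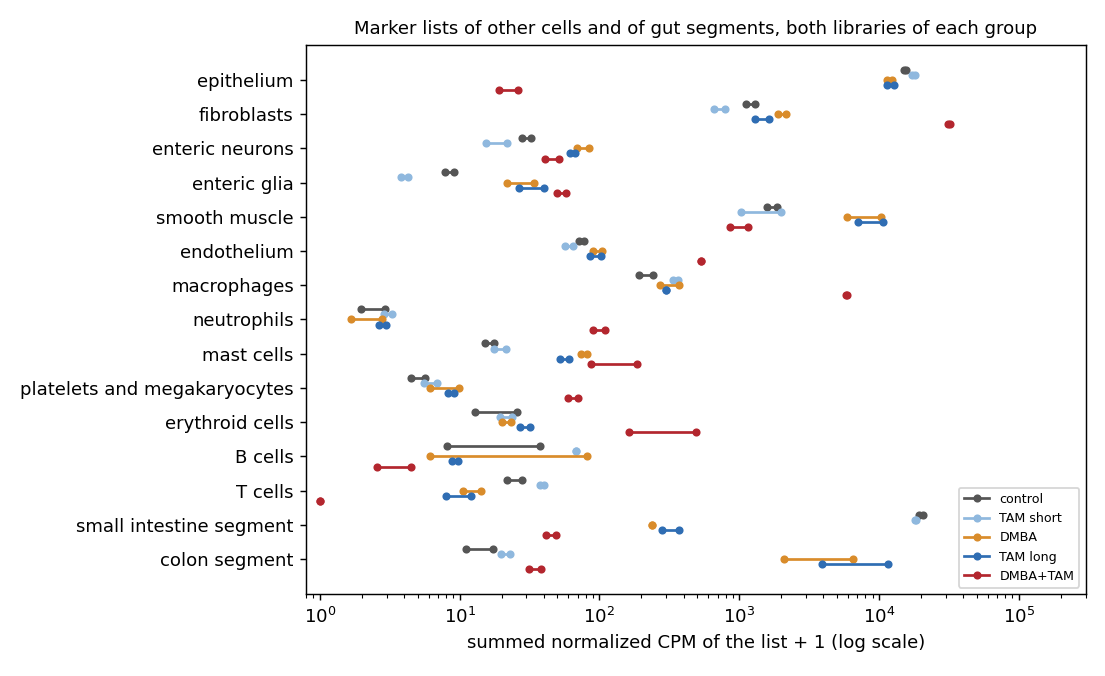
Summed normalized CPM + 1 (x axis, log scale) of 15 marker lists (y axis) in each group, with a point for each of the 2 libraries joined by a line. DMBA+TAM is lowest for epithelium (18.1 to 25.3) and highest for fibroblasts (31200 to 32000) and macrophages (5770 to 5940), and small intestine and colon lists split control and TAM short from DMBA and TAM long.

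The pattern of *Dclk1* over the 10 libraries was compared with that of every tested gene on log2 normalized CPM. The 8 most alike were *Hdac5* (Pearson's r = 0.994), *Kctd17* (0.993), *Ubr2* (0.989), *Mpp2*, *Fxyd1* and *L3mbtl3* (each 0.988), *Cryz* (0.985) and *1810043G02Rik* (0.984), and none of the other tuft cell genes was among them. Of these, *Alox5* and *Ptgs1* reached 0.89 to 0.90, *Avil* 0.77, *Pou2f3* 0.22 and *Trpm5* -0.16. The genes most like *Trpm5* were *Gm10044* (0.992), *Gm14149* and *Vps13d* (each 0.991), *Homer2*, *Igsf9b* and *Mrs2* (each 0.989), *Rhbdl1* (0.988) and *Proser2* (0.987), and *Pou2f3* had an r of 0.86 with it. These correlations describe 10 libraries that fall into few levels, share depth within a group and, for *Trpm5*, hold 0 counts in 2 of them.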

How the data were processed

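RNA was extracted from organoids, and poly-A libraries were made and sequenced by the study's service provider. TopHat served the authors for mapping and HTSeq for the counts of each gene, from which they derived FPKM. The labels name GRCm38.p6, and strand setting and annotation release are not given in the sources used here. The deposited table holds counts and FPKM of 10 libraries (1592366 to 10923673 counts), and columns of the authors' own comparisons, not used. The test on counts was that of edgeR 4.0.16 under R 4.3.3 (low counts removed by filterByExpr, TMM scaling, quasi-likelihood fit with 5 group means, Benjamini-Hochberg adjustment over 16179 genes, threshold 0.05). Alternatives were DESeq2 1.42.0, library size only, no filter, only the groups compared, a replicate block, limma 3.58.1 on log2(FPKM + 1) or log2(FPKM + 0.1), and leaving out each library. Exact permutation of 2 against 2 libraries cannot go below 0.333 (two-sided). The steps were tested on simulated data in which far fewer genes changed than were called here, with a single spread for all genes. This does not check the scaling or the calls under so broad a change. Same-numbered libraries correlated from -0.041 to 0.26 in their deviations, so numbers were not taken as pairs, and replicates differed by more than sampling noise. Likeness used log2 CPM with a prior count of 2. Other steps used pandas 2.3.3, NumPy 2.4.6, SciPy 1.17.1 and matplotlib 3.10.9 in Python 3.11.15. Named were all 8 members, tested genes or genes at 0 of the wider tuft list, and the 8 genes most like *Dclk1* and *Trpm5*. Members and lists were chosen with earlier results of these data known, and some listed genes are not reported here. Where a library was left out, the lone library of its group was assumed to vary as the other groups do.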

Additional observations from a re-analysis of the deposited data

Results flagged for a closer look

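The change against the shared control libraries differed between TAM long and TAM short for each of the 6 tested tuft cell genes, by edgeR's quasi-likelihood test of the difference with Benjamini-Hochberg adjustment. The difference in log2 fold change, TAM long minus TAM short, was 3.07 for *Pou2f3* (on 2 and 1 counts in TAM short), 2.59 for *Dclk1*, 2.14 for *Trpm5*, 2.01 for *Alox5*, 1.47 for *Ptgs1* and 1.19 for *Avil*. The control libraries cancel in this difference, which is that of TAM long against TAM short, and the libraries of the 2 sets differ in the same way in their small intestine and colon markers, so treatment and segment cannot be told apart.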

How the results depend on the processing

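Of 520 values of the 6 tested genes under an alternative, 469 kept direction and side of the threshold, 34 lost a call, 13 gained one and 4 turned. Those that turned were *Dclk1* in TAM short against control (0.01 without control replicate 1, -0.23 without its partner), *Avil* in DMBA+TAM against TAM long (0.01 without DMBA+TAM replicate 2, -0.83 without its partner), *Alox5* in TAM short against control (0.45 without control replicate 2, -0.83 without its partner) and *Ptgs1* in DMBA+TAM against DMBA (0.13 without DMBA replicate 1, -0.73 without its partner), none of them a call in the reported fit. The number of genes called in DMBA+TAM against DMBA was 4, and 2 with DESeq2 and with only the groups compared, and in DMBA+TAM against TAM long it was 4, and 2 with only the groups compared. With only the groups compared, *Pou2f3* did not pass the filter in either; the cause of the other lost calls was not tested. Leaving out a library gave 2 to 5 calls in DMBA+TAM against DMBA, 2 to 4 against TAM long, 3 to 5 in TAM long against control and 0 to 1 in TAM short against control. With the replicate block, calls were 5 in DMBA+TAM against control (4 without it), *Avil* being added, and no other count moved. With DMBA+TAM totals of 1592366 and 1915270, genes such as *Gfi1b* and *Il25* could not be measured there, and levels between genes rest on the length behind FPKM.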
